A study of Mus musculus with 12 samples.

Results

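Visinin-like protein 1 and 8 related calcium-binding proteins were followed in the newborn visual thalamus of mice that lack *Sox2* or *Nr2f1* there. The 9 genes are *Vsnl1*, *Hpca*, *Hpcal1*, *Hpcal4*, *Ncald*, *Ncs1*, *Calb1*, *Calb2* and *Pvalb*, out of 24480 genes in the count tables, and all 9 were found by symbol. *Vsnl1* was selected on the difference of its change between the mutants in these libraries, so its values are given as a description without a test. The other 8 were taken as members of the same gene families and as the classical neuronal calcium buffers, with earlier results of these data known. RNA-seq was performed on the dorsal lateral geniculate nucleus (dLGN), the thalamic relay of vision, dissected at birth (P0). There were 12 libraries in 4 groups of 3, and each library was a pool of dLGNs from 3 animals. *Sox2* mutants were Sox2flox/flox with Ror-alphaCre, and their controls were Sox2flox/flox or Sox2flox/+ littermates without Cre. *Nr2f1* mutants were Nr2f1 flox/flox with Ror-alphaCre, and their controls were littermates homozygous or heterozygous for the floxed allele. *Nr2f1* control labels list Ror-alphaCre next to a remark of no Cre, and the study's methods give these controls as Cre-negative. Cre is expressed from the *Rora* locus, in sensory thalamic cells that have left the cell cycle, and was carried by mutants alone, so that an effect of the Cre allele itself and of the deletion cannot be told apart. Other cells of the dissected tissue keep the floxed gene. Mutants of each line were compared with the controls of that line.

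Calcium that enters a neuron acts through proteins that bind it with EF-hands, helix-loop-helix motifs whose loop holds the ion. Neuronal calcium sensors change shape on binding calcium. Most of those followed here carry an N-terminal fatty acid, attached to the glycine that follows the first methionine, which calcium exposes so that the protein moves to membranes. VILIP-1 (*Vsnl1*) and its close relative VILIP-2 (*Hpcal4*), hippocalcin (*Hpca*), hippocalcin-like 1 (*Hpcal1*, also called VILIP-3), neurocalcin delta (*Ncald*) and neuronal calcium sensor 1 (*Ncs1*) belong to this family and act on receptor trafficking, cyclases, channels and phosphoinositide kinases. Calbindin (*Calb1*), calretinin (*Calb2*) and parvalbumin (*Pvalb*) mainly buffer calcium and are widely used to tell classes of neurons apart. In the visual thalamus they label different cell classes and layers, and parvalbumin appears late in postnatal life in many brain regions.

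The start of the coding sequence separates both kinds of protein. The first 30 coding bases of each gene are shown from GENCODE M21 transcripts (GRCm38), with the start codon and the second codon in capitals, because the second codon encodes the glycine that carries the fatty acid.
Vsnl1: ATGGGGaaacagaatagcaaactggcccca
Hpcal4: ATGGGGaaaaacaacagcaagctggccccc
Hpca: ATGGGCaagcagaacagcaagctgcggcca
Hpcal1: ATGGGCaagcagaacagcaagctgcgtcct
Ncald: ATGGGGaaacagaacagcaagctgcgccct
Ncs1: ATGGGGaaatccaacagcaagttgaagcct
Calb1: ATGGCAgaatcccacctgcagtcatctctg
Calb2: ATGGCTggcccgcagcagcagcccccttac
Pvalb: ATGTCGatgacagacgtgctcagcgctgag
The second codon encoded glycine in the 6 sensors, alanine in *Calb1* and *Calb2*, and serine in *Pvalb*. The translated proteins were 190 to 193 residues long in the 6 sensors, 261 in *Calb1*, 271 in *Calb2* and 110 in *Pvalb*. A search with the PROSITE EF-hand pattern found 3 loops in each of the 6 sensors, 4 in *Calb1*, 5 in *Calb2* and 2 in *Pvalb*.

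The second loop found by the pattern began at residue 109 in all 6 sensors, and its 12 codons are shown because codon 7 of the loop, in capitals, sets the visinin-like pair apart from the other 4 sensors.
Vsnl1: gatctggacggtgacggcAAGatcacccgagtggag
Hpcal4: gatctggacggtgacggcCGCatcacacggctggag
Hpca: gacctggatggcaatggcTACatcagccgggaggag
Hpcal1: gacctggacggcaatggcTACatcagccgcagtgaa
Ncald: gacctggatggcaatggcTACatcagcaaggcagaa
Ncs1: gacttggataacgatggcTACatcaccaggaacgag
Over the whole protein, VILIP-1 was identical to the *Hpcal4* product at 171 of 191 aligned residues (89.5%), to hippocalcin at 68.3% and to the *Ncs1* product at 57.1%. Within the hippocalcin group, identity was 93.8% between *Hpca* and *Hpcal1*, 88.1% between *Hpca* and *Ncald*, and 89.6% between *Hpcal1* and *Ncald*. Calbindin and calretinin were identical at 59.6% of aligned residues, and VILIP-1 and calbindin at 26.0%. The longest run of bases shared by transcripts of any 2 of the 9 genes was 46 bases, between *Hpca* and *Ncald*, and the next was 38, between *Hpca* and *Hpcal1*.

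In the RefSeq annotation of GRCm38, *Vsnl1* and *Hpcal1* lie on chromosome 12 at chr12:11325257-11436578 and chr12:17690750-17791944. Chromosome 4 holds *Hpca* at chr4:129111570-129125919, *Hpcal4* at chr4:123183504-123194699 and *Calb1* at chr4:15881264-15906709. Chromosome 15 holds *Ncald* at chr15:37366175-37792519 and *Pvalb* at chr15:78191112-78206400. *Ncs1* is at chr2:31245708-31295989 and *Calb2* at chr8:110142526-110168212. The promoter table holds windows of 300 bases for 6 of the 9 genes, namely *Vsnl1*, *Hpca*, *Hpcal1*, *Hpcal4*, *Ncs1* and *Pvalb*. The letters ACAAT, the core of the SOX motif, were searched on both strands and occurred in 2 of the 10 windows of these genes, against 31% of 32851 windows of all genes. They occurred in 1 of the 2 windows of *Vsnl1*, which is shown because *Vsnl1* had the largest difference between the mutants of the 9 genes. It covers chr12:11435602-11435901 on the minus strand (RefSeq, GRCm38.p6), and capitals mark the 2 matches, which read as the reverse complement.
Vsnl1 promoter: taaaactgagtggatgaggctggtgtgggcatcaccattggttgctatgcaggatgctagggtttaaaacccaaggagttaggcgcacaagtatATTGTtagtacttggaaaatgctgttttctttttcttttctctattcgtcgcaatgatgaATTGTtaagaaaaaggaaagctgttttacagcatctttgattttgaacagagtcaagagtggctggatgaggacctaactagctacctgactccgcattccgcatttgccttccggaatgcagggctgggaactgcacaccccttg
The letters AGGTCA, the core site of nuclear receptors, occurred in 2 of the 10 windows, 1 of *Hpca* and 1 of *Hpcal4*, against 16.3% of all windows, and in neither window of *Vsnl1*. Neither motif overlaps the other in these windows.

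Total counts per library lay between 39293465 and 50095344. *Sox2* fell from 369 ± 11.7 to 139 ± 20.2 CPM (counts scaled to the library size; mean ± SD, n = 3) in *Sox2* mutants, with an adjusted p-value (FDR) of 4.83e-05 by the quasi-likelihood test of edgeR. *Nr2f1* fell from 354 ± 37.5 to 119 ± 27.5 CPM in *Nr2f1* mutants (edgeR, FDR = 0.000348). Markers of thalamic glutamatergic neurons were detected in every library, 7 of 7 genes, with summed levels of 1934 to 2498 CPM in *Sox2*-line controls, 1662 to 1752 CPM in *Sox2* mutants, 2361 to 2573 CPM in *Nr2f1*-line controls and 2290 to 2630 CPM in *Nr2f1* mutants. Members of this list went both ways. At FDR<0.01 in *Sox2* mutants 4 were lower and 1 higher, *Gbx2* (log2 fold change 1.67, edgeR, FDR = 0.000206), against 4.19% and 3.90% of all genes tested. In *Nr2f1* mutants 1 was lower, *Lef1* (-0.70, edgeR, FDR = 0.00853), and 0 higher, against 1.32% and 1.22%. DESeq2 called 2 higher there. The pools differed in sex, and 1 *Nr2f1* mutant pool, library A, had 0 counts of the 4 male-specific genes.

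In control dLGN the sensors *Hpca* and *Ncald* stood highest of the 9 genes per length of transcript. Levels between genes were compared as CPM divided by the length in kb of the longest protein-coding transcript. *Hpca* reached 118 ± 6.18 CPM per kb in *Sox2*-line controls and 107 ± 3.86 CPM per kb in *Nr2f1*-line controls, and *Ncald* reached 113 ± 8.68 and 118 ± 0.667 CPM per kb (SD, n = 3 in each line). The ranges of both genes overlapped in the *Sox2* line, at 112 to 124 CPM per kb for *Hpca* and 103 to 118 CPM per kb for *Ncald*, and their order turned between the lines. *Ncs1* followed at 60.3 ± 1.26 and 58.8 ± 2.92 CPM per kb, and its range overlapped that of *Calb2*, at 57.8 ± 6.14 and 51.5 ± 1.77 CPM per kb, in the *Sox2* line. *Vsnl1* was next at 25.9 ± 3.20 and 28.4 ± 2.85 CPM per kb, apart from its neighbours in every control library. With the shortest protein-coding transcript in place of the longest, *Vsnl1* was at 29.1 and *Hpcal4* at 28.8 CPM per kb in *Sox2*-line controls, and they were not apart. *Hpcal4* (9.50 ± 0.837 and 10.4 ± 0.795 CPM per kb) and *Hpcal1* (9.24 ± 1.28 and 9.67 ± 0.882 CPM per kb) overlapped. *Calb1* was low at 1.35 ± 0.498 and 1.41 ± 0.122 CPM per kb, and *Pvalb* lowest at 0.252 ± 0.111 and 0.184 ± 0.0557 CPM per kb. *Pvalb* was counted 5 to 15 times in a control library and 4 to 37 times in a mutant library, and did not pass the filter on low counts in either line, whereas the other 8 passed in both.

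**Figure D1:**
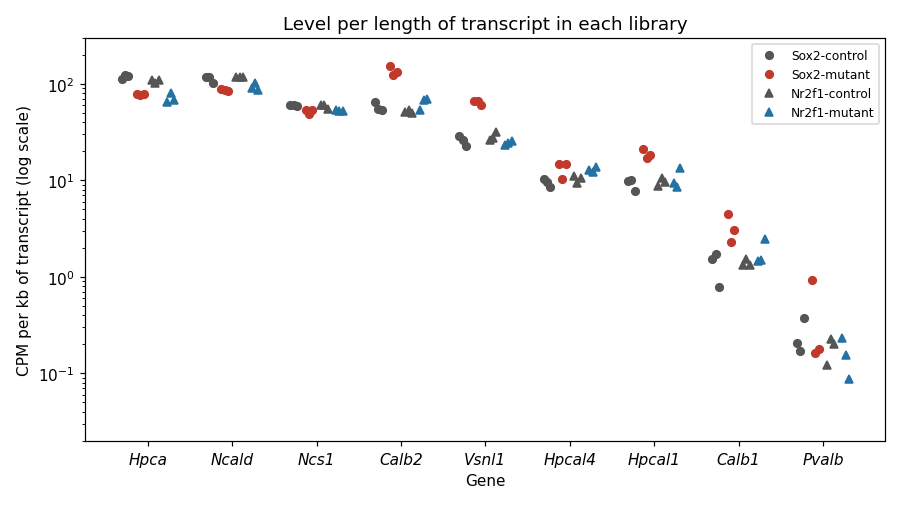
Level of each gene in CPM per kb of its longest transcript (vertical axis, log scale) in each of the 12 libraries, with *Sox2*-line libraries as circles, *Nr2f1*-line libraries as triangles, controls in grey and mutants in colour. *Hpca* and *Ncald* stand above 100 CPM per kb in every control library, *Pvalb* stands below 1 in every library, and *Calb2* moves above all other genes in *Sox2* mutants.

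In *Sox2* mutants, *Vsnl1* moved above its controls. It was measured at 55.0, 50.2 and 42.9 CPM in *Sox2*-line control libraries 1, 2 and 3, and at 127, 127 and 115 CPM in mutant libraries 1, 3 and 4. The lowest mutant library was above the highest control library. The means were 49.4 ± 6.09 and 123 ± 6.83 CPM (SD, n = 3), a 2.49-fold level, and the fitted log2 fold change was 1.32 with a standard error (SE) of 0.09. In the *Nr2f1* line, *Vsnl1* was measured at 49.5, 52.5 and 60.0 CPM in control libraries B, D and E and at 44.3, 46.8 and 48.8 CPM in mutant libraries A, B and C. Every *Nr2f1* mutant library was below every control library, with means of 54.0 ± 5.42 and 46.6 ± 2.26 CPM and a log2 fold change of -0.21 (SE 0.08). Subtracting the change in *Nr2f1* mutants from the change in *Sox2* mutants gave 1.54 on the log2 scale (SE 0.13). This value chose *Vsnl1*. Among 15989 genes compared, it ranked 231st in size, and it was the largest of the 9 genes. *Pvalb*, at 0.98 on counts near 0, and *Hpcal1*, at 0.94, were the nearest below it.

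**Figure D2:**
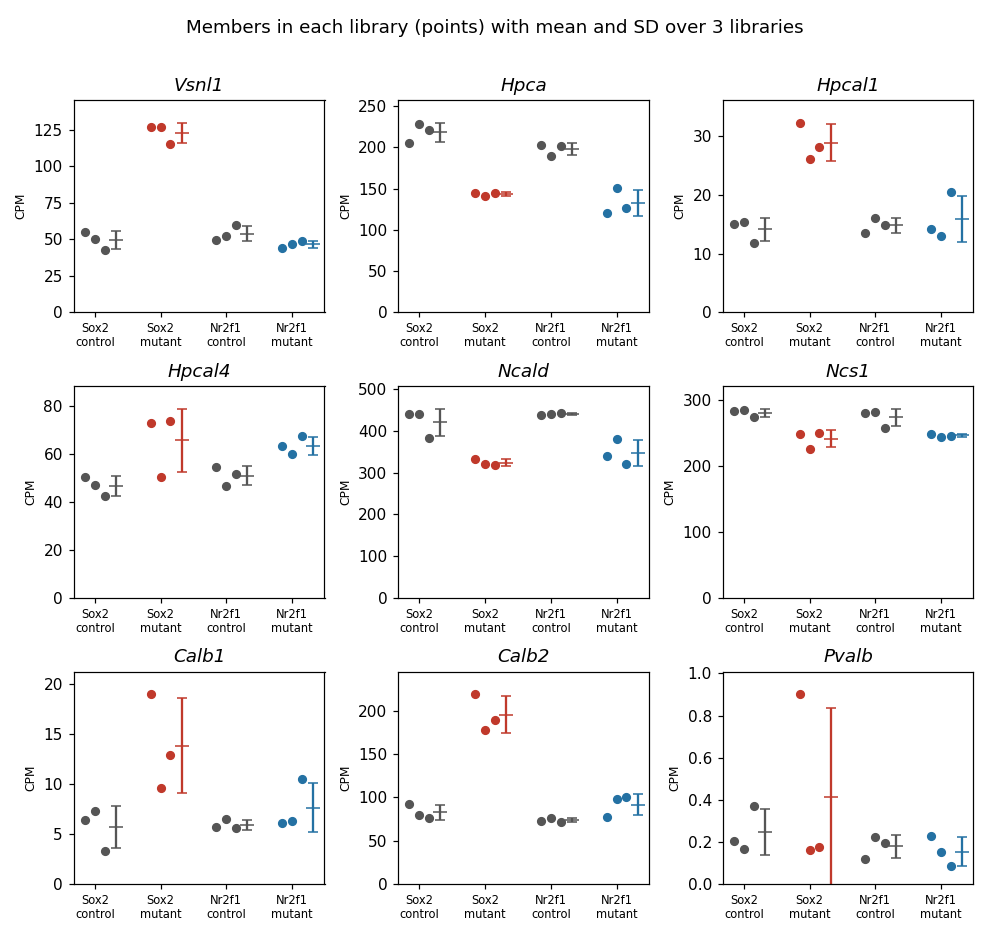
CPM of the 9 genes (vertical axes, each from 0) in the 12 libraries by group, where points are libraries and bars are the mean and SD of 3 libraries. *Vsnl1*, *Hpcal1*, *Calb1* and *Calb2* are above all controls of the line in every *Sox2* mutant library, *Hpca*, *Ncald* and *Ncs1* are below all controls in every mutant library of both lines, and the high *Pvalb* value is *Sox2* mutant library 1.

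The other visinin-like gene, *Hpcal4*, was measured at 50.7, 47.4 and 42.5 CPM in *Sox2*-line controls and at 73.2, 50.4 and 73.8 CPM in *Sox2* mutants. Mutant library 3 lay within the range of the controls. The fitted log2 change was 0.49 (edgeR, SE 0.14, FDR = 0.0348), which did not pass the threshold of 0.01, and it was 0.65 without mutant library 3 (FDR = 0.00214). Of 6 fits that left out a library of this line, only that 1 passed. *Nr2f1*-line libraries held *Hpcal4* at 54.6, 46.9 and 51.7 CPM in controls and at 63.5, 60.0 and 67.5 CPM in mutants. These groups did not overlap, and the log2 change of 0.32 (SE 0.07) did not pass (edgeR, FDR = 0.0292). The difference between the mutants was 0.18 with a 95% interval from -0.19 to 0.54 (edgeR, FDR = 0.699).

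*Hpca*, which encodes the hippocalcin known from hippocampal pyramidal cells, fell in both mutants. It was measured at 206, 228 and 222 CPM in *Sox2*-line controls and at 144, 141 and 145 CPM in *Sox2* mutants, where its mean was 65.6% of the control mean. The fitted log2 change was -0.61 (edgeR, SE 0.06, FDR = 0.000309). Levels in the *Nr2f1* line were 202, 190 and 201 CPM in controls and 121, 150 and 127 CPM in mutants, where its mean was 67.1% of the control mean. The fitted log2 change was -0.57 (edgeR, SE 0.08, FDR = 0.00255). The groups did not overlap in either line, and the difference between the mutants was -0.03 with a 95% interval from -0.25 to 0.19 (edgeR, FDR = 0.943). *Hpca* passed in 6 of 6 fits that left out a library of the *Sox2* line, and in 2 of 6 that left out one of the other line. The call was lost without control library B (FDR = 0.0166), D (0.0102) or E (0.0125) or mutant library A (0.0149), with log2 fold changes from -0.51 to -0.60. In dissected tissue, fewer cells that express a gene and less RNA per cell cannot be told apart.

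The remaining hippocalcin-like genes took opposite directions in *Sox2* mutants. *Hpcal1*, which encodes VILIP-3, was measured at 15.1, 15.4 and 11.8 CPM in *Sox2*-line controls and at 32.2, 26.1 and 28.2 CPM in *Sox2* mutants. It rose there by 1.03 on the log2 scale (SE 0.12, edgeR, FDR = 0.00055), with no overlap, and passed in 6 of 6 fits that left out a library. *Nr2f1*-line libraries gave 13.4, 16.1 and 14.8 CPM in controls and 14.2, 12.96 and 20.4 CPM in mutants. Mutant library C was above all controls and library B below them, and the fitted log2 change was 0.10 (edgeR, SE 0.16, FDR = 0.747). The difference between the mutants was 0.94 (SE 0.22, 95% interval from 0.47 to 1.41) and did not pass at the threshold (edgeR, FDR = 0.0305). Without *Nr2f1* mutant library C it was 1.17 (FDR = 0.00213). Of 12 fits that left out a library, only that 1 passed.

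*Ncald*, whose product neurocalcin delta is close to hippocalcin, was measured at 440, 439 and 383 CPM in *Sox2*-line controls and at 333, 320 and 319 CPM in *Sox2* mutants. It fell by 0.38 on the log2 scale (SE 0.07, edgeR, FDR = 0.00779). The call held without control library 3 and was lost without control library 1 (FDR = 0.0311), control library 2 (0.0427) or mutant library 1 (0.0198), 3 (0.0275) or 4 (0.0473). Levels of *Ncald* in the *Nr2f1* line were 437, 439 and 442 CPM in controls and 341, 380 and 320 CPM in mutants. All mutant libraries were below all controls, and the log2 change of -0.34 (SE 0.06) did not pass (edgeR, FDR = 0.0128), while without mutant library B it was -0.41 (FDR = 0.00165). Of 6 fits that left out a library of this line, only that 1 passed. The difference between the mutants was -0.03 with a 95% interval from -0.23 to 0.17 (edgeR, FDR = 0.934).

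*Ncs1*, the ancestral sensor that regulates neurotransmitter release and phosphatidylinositol 4-kinase, was measured at 283, 284 and 274 CPM in *Sox2*-line controls and at 248, 226 and 250 CPM in mutants. Its levels in the *Nr2f1* line were 280, 282 and 258 CPM in controls and 249, 244 and 246 CPM in mutants. The groups did not overlap in either line, although the log2 fold changes were only -0.22 (SE 0.07, edgeR, FDR = 0.0497) and -0.15 (SE 0.05, FDR = 0.101) and neither passed. Their difference was -0.06 with a 95% interval from -0.22 to 0.10 (edgeR, FDR = 0.786).

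Among the buffers, *Calb2* rose in *Sox2* mutants. Calretinin was measured at 92.7, 79.2 and 76.2 CPM in *Sox2*-line controls and at 219, 178 and 189 CPM in *Sox2* mutants, a 2.36-fold level. The fitted log2 change was 1.24 (edgeR, SE 0.10, FDR = 7.6e-05), and it passed in 6 of 6 fits that left out a library. Calretinin in the *Nr2f1* line was at 72.6, 76.5 and 71.8 CPM in controls and at 77.2, 97.8 and 99.9 CPM in mutants. These groups did not overlap, and the log2 change of 0.32 (SE 0.09) did not pass (edgeR, FDR = 0.0653), while without mutant library A it was 0.43 (FDR = 0.00853). Of 6 fits that left out a library of this line, only that 1 passed. The change was larger in *Sox2* than in *Nr2f1* mutants by 0.93 on the log2 scale (SE 0.14, 95% interval from 0.62 to 1.24, edgeR, FDR = 0.00207). This difference passed in 11 of 12 fits that left out a library and was 0.91 without *Sox2*-line control library 2 (FDR = 0.0107).

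*Calb1* was measured at 6.44, 7.34 and 3.33 CPM in *Sox2*-line controls and at 19.0, 9.63 and 12.9 CPM in *Sox2* mutants. The groups did not overlap but varied within, with control library 3 low and mutant library 1 high, and the log2 change of 1.28 (SE 0.30) did not pass (edgeR, FDR = 0.0167). *Nr2f1*-line libraries held *Calb1* at 5.66, 6.54 and 5.63 CPM in controls and at 6.15, 6.31 and 10.5 CPM in mutants, with a log2 change of 0.37 (edgeR, SE 0.20, FDR = 0.304). The difference between the mutants was 0.92 with a 95% interval from 0.04 to 1.80 (edgeR, FDR = 0.289). *Pvalb* was counted 9, 7 and 15 times in *Sox2*-line controls, 37, 7 and 8 times in *Sox2* mutants, 5, 11 and 9 times in *Nr2f1*-line controls and 9, 7 and 4 times in *Nr2f1* mutants. A change of *Pvalb* was not detectable at this depth, and its high value was in *Sox2* mutant library 1 alone.

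Of the 8 genes other than *Vsnl1*, 7 could be tested within a line. In *Sox2* mutants 2 were called lower (*Hpca* and *Ncald*), where 4.19% of the 15602 genes tested were called lower, and 2 were called higher (*Hpcal1* and *Calb2*), where 3.90% were. In *Nr2f1* mutants 1 was called lower (*Hpca*), where 1.32% of 15600 genes were, and 0 were called higher, where 1.22% were (2 higher at an unadjusted p under 0.05, and 1 with DESeq2). For the difference between the mutants 1 was called with the higher change in *Sox2* mutants (*Calb2*), where 0.331% of 15989 genes were, and 0 with the lower change, where 1.11% were (0 at an unadjusted p under 0.05, and 0 with DESeq2). Libraries of mutants were apart from those of controls for 6 of the 7 genes in the *Sox2* line, against 37.9% of all genes tested, and for 5 of the 7 in the *Nr2f1* line, against 28.6%. The median log2 fold change of the 7 was 0.49 in *Sox2* mutants and 0.10 in *Nr2f1* mutants, against 0.000497 and 0.0138 over all genes tested. Because the genes were chosen with earlier results of these data known, these comparisons with all genes are descriptions and not tests.

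**Figure D3:**
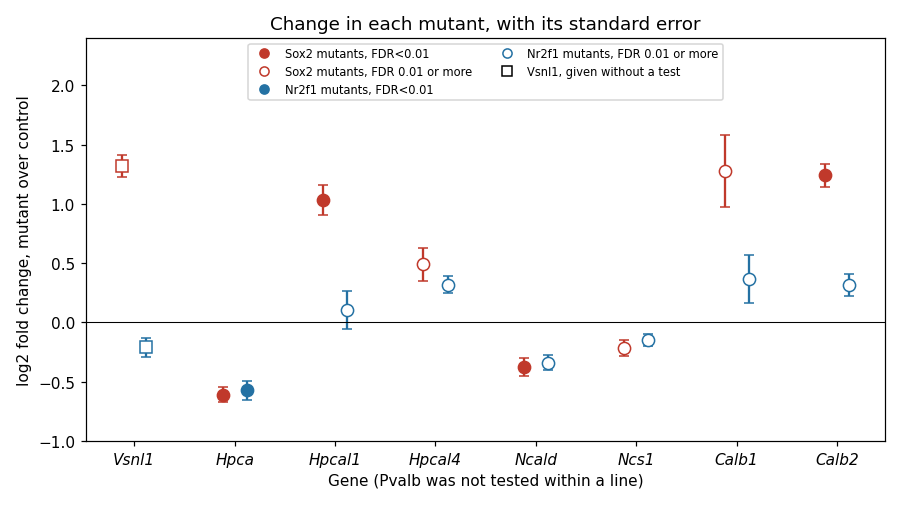
Log2 fold change of mutants over controls of the same line (vertical axis) with its SE for the 8 genes that passed the filter, *Sox2* mutants in red and *Nr2f1* mutants in blue, where filled symbols have an FDR below 0.01 and *Vsnl1* (squares) is given without a test. *Hpca* and *Ncald* lie at like values in both mutants, whereas *Vsnl1*, *Hpcal1* and *Calb2* lie above 1 in *Sox2* mutants and between -0.21 and 0.32 in *Nr2f1* mutants.

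Markers of neighbouring tissue were high in some of the *Sox2* mutant libraries. The summed level of 8 genes of pallial and hippocampal neurons was 33.4 to 57.2 CPM in *Sox2*-line controls and 124, 51.7 and 83.0 CPM in mutant libraries 1, 3 and 4. That of 8 genes of the ventral LGN and prethalamus was 19.1 to 34.9 CPM in controls and 84.5, 37.5 and 49.4 CPM in the same mutants. None of these 16 genes was at 0 in any library and 0 of them passed the threshold in either line with edgeR, at log2 fold changes of 0.37 to 1.68 in *Sox2* mutants. In *Sox2* mutants 6 of 8 pallial and 8 of 8 ventral genes had an unadjusted p under 0.05, all higher, and DESeq2 called 1 and 3 of them. In *Nr2f1* mutants 0 had an unadjusted p under 0.05, and DESeq2 called 0. The high library of both lists was mutant library 1, which was also high for *Calb1*, *Calb2*, *Hpcal1* and *Pvalb*. *Vsnl1* was at 127 CPM in both mutant library 1 and mutant library 3 and at 115 CPM in mutant library 4. In the *Nr2f1* line these lists ranged from 34.5 to 41.8 and 22.4 to 25.6 CPM in controls and from 35.9 to 43.0 and 22.5 to 36.1 CPM in mutants. With the mean level of the pallial list as a covariate, added after seeing the data, the log2 fold change in *Sox2* mutants was 1.22 for *Vsnl1*, 0.80 for *Hpcal1* (edgeR, FDR = 0.00145), 1.03 for *Calb2* (FDR = 7.84e-05) and 0.57 for *Calb1* (FDR = 0.112). *Hpcal4*, at 0.49 without a covariate, was then at 0.15 (FDR = 0.377). With the ventral list it was 1.13 for *Vsnl1*, 0.69 for *Hpcal1* (FDR = 0.00393), 0.96 for *Calb2* (FDR = 0.000166), 0.15 for *Hpcal4* (FDR = 0.554) and 0.28 for *Calb1* (FDR = 0.423). The difference of *Calb2* between the mutants was then 0.70 (FDR = 0.00907) with the pallial list and 0.76 (FDR = 0.013) with the ventral list. Ventral sums of *Sox2*-line controls and mutants did not overlap, so these fits do not fully separate that list from genotype. The part of neighbouring tissue in the changes of *Vsnl1* and the other genes was not tested.

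Markers of inhibitory neurons, some classes of which carry calbindin or calretinin, were also higher in *Sox2* mutants. The summed level of 4 genes of GABAergic neurons was 382 to 431 CPM in *Sox2*-line controls and 455 to 481 CPM in *Sox2* mutants, and that of 4 genes of thalamic interneurons derived from the midbrain was 66.1 to 76.3 CPM and 88.9 to 98.1 CPM. Neither pair of groups overlapped, where 37.9% of single genes tested in this line did not either. Of the GABAergic genes 3 had an unadjusted p under 0.05 in *Sox2* mutants, with 0 called by edgeR and 3 by DESeq2. Of the interneuron genes 4 had, with 1 called by edgeR (*Otx2*, log2 fold change 0.48, FDR = 0.00856) and 3 by DESeq2. Of all genes tested, edgeR called 3.90% higher in this line. In *Nr2f1* mutants the sums were 387 to 506 CPM against 381 to 416 CPM for GABAergic genes and 73.4 to 119 CPM against 62.9 to 72.0 CPM for interneuron genes, with 3 and 4 genes at an unadjusted p under 0.05, 0 called by edgeR, and 0 and 1 by DESeq2. None of these 8 genes was at 0 in any library, and their part in the changes of *Calb1* and *Calb2* was not tested.

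Glial markers were also higher in *Sox2* mutants, at 2671 to 3070 CPM against 1777 to 2153 CPM in controls for 7 astrocyte genes and at 178 to 201 CPM against 83.8 to 95.3 CPM for 5 microglial genes. None of these genes was at 0 in any library. Microglial genes in *Nr2f1* mutants were at 78.5 to 106 CPM against 63.8 to 72.2 CPM, and astrocyte genes at 1732 to 1882 CPM against 1558 to 1622 CPM. The part of glial RNA in the changes of the calcium-binding genes was not tested. Genes of meningeal fibroblasts, 4 in number, varied within groups, with 571 to 1159 CPM in *Sox2*-line controls, 916 to 2051 CPM in *Sox2* mutants, 441 to 679 CPM in *Nr2f1*-line controls and 641 to 1426 CPM in *Nr2f1* mutants. With their mean as a covariate the call of *Ncald* in *Sox2* mutants was lost (log2 fold change -0.30, edgeR, FDR = 0.0332), as was that of *Hpca* in *Nr2f1* mutants (-0.40, FDR = 0.0589), while *Hpcal4* (0.71, FDR = 0.000824) and *Calb1* (1.87, FDR = 2.58e-05) were called in *Sox2* mutants. With the male-specific genes as a covariate *Ncald* in *Sox2* mutants was at -0.40 (edgeR, FDR = 0.013) and *Hpca* in *Nr2f1* mutants at -0.50 (FDR = 0.0292).

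**Figure D4:**
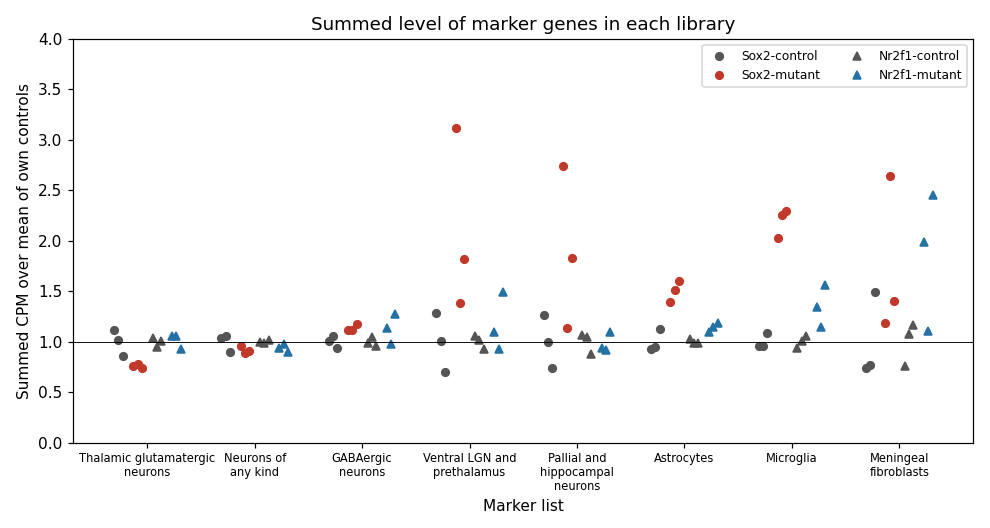
Summed CPM of 8 lists of marker genes in each library, divided by the mean of the controls of the same line (vertical axis, from 0), with *Sox2*-line libraries as circles and *Nr2f1*-line libraries as triangles. *Sox2* mutants lie below their controls for the sum of thalamic glutamatergic genes, where *Gbx2* was higher, and above them for astrocytes and microglia. The points above 2.5 in the ventral and pallial lists are *Sox2* mutant library 1.

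Other genes of calcium binding and signalling were examined in 6 lists of 67 genes in all, of which 59 passed the filter in the *Sox2* line and 58 did so for *Nr2f1*. In *Sox2* mutants 4 were called lower and 6 higher, with a median log2 fold change of -0.00145 over the tested genes, where 4.19% and 3.90% of all genes were called lower and higher. In *Nr2f1* mutants 4 were called lower and 2 higher, with a median of -0.0837, where 1.32% and 1.22% of all genes were. For the difference between the mutants, 1 of 63 tested was called lower and 2 higher in *Sox2* mutants, where 1.11% and 0.331% of all genes were. These lists too were chosen with earlier results of these data known.

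The calcium and calmodulin effectors were the largest list, with 26 genes that were all tested. In *Sox2* mutants 2 of them were called lower and 3 higher, where 4.19% and 3.90% of all genes tested were. In *Nr2f1* mutants 3 were called lower and 1 higher, where 1.32% and 1.22% were. For the difference between the mutants, 1 was called lower and 1 higher in *Sox2* mutants, where 1.11% and 0.331% of all genes were. *Camk4*, a kinase that carries calcium signals to transcription in the nucleus, fell in both mutants. It was at 613, 548 and 472 CPM in *Sox2*-line controls and 209, 219 and 201 CPM in *Sox2* mutants, with a log2 change of -1.38 (edgeR, FDR = 3.88e-05). In the *Nr2f1* line it was at 549, 511 and 536 CPM in controls and 373, 385 and 307 CPM in mutants, with a log2 fold change of -0.58 (FDR = 0.00314). The fall was larger in *Sox2* mutants by 0.79 on the log2 scale (FDR = 0.00401), a difference that passed in 3 of 12 fits that left out a library. *Camkk2*, a kinase that activates CaMKIV, also fell in *Sox2* mutants (log2 fold change -0.52, FDR = 0.00125) and was at -0.28 in *Nr2f1* mutants (FDR = 0.0326). *Pcp4*, a small calmodulin regulator, was at 103, 92.5 and 100 CPM in *Nr2f1*-line controls and 46.6, 62.4 and 50.6 CPM in *Nr2f1* mutants, and fell by 0.89 (FDR = 0.000944). In *Sox2* mutants its log2 fold change was -0.20 (FDR = 0.0691), and the difference of 0.69 between the mutants passed (FDR = 0.00791), but in 1 of 12 fits that left out a library.

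The same list held genes that were higher. *Camk1g*, a membrane-bound calmodulin kinase, rose in *Sox2* mutants by 0.88 (edgeR, FDR = 0.00197). *Nrgn*, which encodes the calmodulin-binding neurogranin of forebrain dendrites, was at 16.6, 10.2 and 8.79 CPM in *Sox2*-line controls and 53.5, 22.3 and 34.6 CPM in *Sox2* mutants, and rose by 1.63 (FDR = 0.00675), again with its high value in mutant library 1. Over all settings its log2 fold change lay between 0.56 and 2.10 and its FDR reached 0.0834. The plasma membrane calcium pump gene *Atp2b4* rose in *Sox2* mutants by 0.37 (FDR = 0.00752), and *Atp2b1*, another pump, fell in *Nr2f1* mutants by 0.72 (FDR = 0.00148). In the other line, *Atp2b4* was at 0.09 (FDR = 0.314) and *Atp2b1* at -0.44 (FDR = 0.0127). The difference of *Atp2b1* between the mutants was 0.28 (FDR = 0.349). *Camk2a*, the alpha subunit of CaMKII, rose in *Nr2f1* mutants by 0.39 (FDR = 0.00374). Of 6 fits that left out a library in the line concerned, *Camk4* and *Camkk2* in *Sox2* mutants and *Pcp4* in *Nr2f1* mutants passed in 6. *Camk1g* passed in 5 and *Atp2b1* in 4, whereas *Nrgn*, *Atp2b4*, *Camk2a*, and *Camk4* in *Nr2f1* mutants passed in 2.

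Among the binding partners of visinin-like proteins and NCS-1, 9 genes of which 9 were tested, genes for subunits of the nicotinic acetylcholine receptor that VILIP-1 binds were called lower in 1 line each. *Chrnb2* was at 170, 170 and 137 CPM in *Sox2*-line controls and 101, 97.4 and 88.3 CPM in *Sox2* mutants, and fell by 0.74 (edgeR, FDR = 0.000817) in 6 of 6 fits that left out a library. *Chrna4* fell in *Nr2f1* mutants by 0.39 (FDR = 0.00855) and passed in 1 of 6 such fits, and its log2 fold change in *Sox2* mutants was -0.27 (FDR = 0.0736). Of all genes tested, 4.19% were called lower in *Sox2* mutants and 1.32% in *Nr2f1* mutants. The median log2 fold change of the list was -0.27 in *Sox2* mutants and -0.12 in *Nr2f1* mutants.

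In the CaBP, calneuron and NECAB list, *Necab1* was at 50.2, 48.1 and 30.4 CPM in *Sox2*-line controls and at 81.3, 66.3 and 80.4 CPM in *Sox2* mutants (log2 fold change 0.83, edgeR, FDR = 0.00885). This call passed in 1 of 6 fits that left out a library and was lost with male-specific, pallial or ventral LGN genes as a covariate, and its log2 fold change over all settings lay between 0.36 and 1.14. In the *Nr2f1* line it was at 46.9, 44.3 and 45.0 CPM in controls and at 36.8, 41.8 and 36.8 CPM in mutants (-0.24, FDR = 0.0693). The difference between the mutants was 1.07 (FDR = 0.00851) and passed in 3 of 12 fits that left out a library. *Cabp1*, named after its values were seen, was called lower in *Sox2* mutants at -0.49 (FDR = 0.00996), and passed in 0 of 6 such fits. *Necab2* rose in *Nr2f1* mutants by 0.45 (FDR = 0.00868) and passed in 1 of 6 such fits. Of the 7 other neuronal calcium sensors, *Kcnip3*, the potassium channel partner and repressor DREAM, rose in *Sox2* mutants by 0.50 (FDR = 0.00808) and passed in 1 of 6. Of 7 tested S100 genes 1 rose in *Sox2* mutants, *S100a11* by 0.81 (FDR = 0.00725), and passed in 2 of 6. Of all genes tested, 3.90% were called higher in *Sox2* mutants. The median of the S100 genes was 0.65 in *Sox2* mutants and 0.21 in *Nr2f1* mutants. None of the 4 tested genes of the calmodulin and buffer list passed in either line with edgeR or DESeq2 (0 in *Sox2* mutants and 2 lower in *Nr2f1* mutants at an unadjusted p under 0.05).

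**Figure D5:**
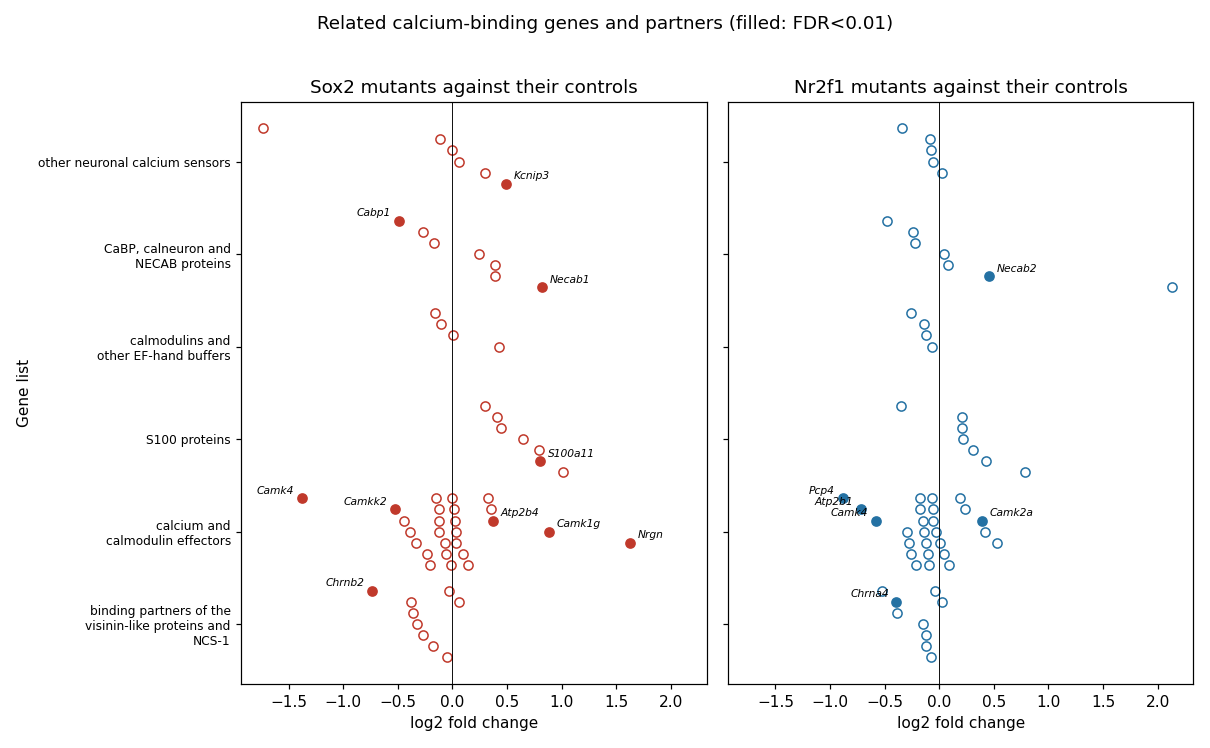
Log2 fold change (horizontal axes) of the tested genes of 6 related lists in *Sox2* mutants (left) and *Nr2f1* mutants (right), 1 point a gene, filled and named where the FDR was below 0.01, and spread vertically within a list only for legibility. *Camk4* at -1.38 and *Nrgn* at 1.63 are the outer called genes in *Sox2* mutants, and the far right open point in *Nr2f1* mutants is *Cabp7*, at 2.13 with an FDR of 0.0123.

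Over the 12 libraries, log2 CPM of *Vsnl1* followed that of *Calb2* (Pearson r = 0.93) and *Hpcal1* (0.92) and not that of *Hpca* (-0.39), while *Hpca* followed *Ncald* (0.85) and *Ncs1* (0.81). These are descriptions over 12 points that share their libraries and their 4 groups. The 5 genes of all tested whose log2 CPM was most like that of *Vsnl1* over the 12 libraries included *Tshz2* (r = 0.966), *Ldlrad3* (0.965) and *Osbpl9* (0.954). *Tshz2*, a zinc finger transcription factor gene, was at 34.2 ± 0.515 CPM in *Sox2*-line controls, 60.0 ± 7.16 CPM in *Sox2* mutants, 35.7 ± 1.67 CPM in *Nr2f1*-line controls and 33.0 ± 2.26 CPM in *Nr2f1* mutants (SD, n = 3).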

How the data were processed

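RNA-seq was performed by the authors on pools of dLGN at P0 with an mRNA-seq kit. Per the study's methods, STAR aligned paired reads to RefSeq mouse transcripts and RSEM quantified them, and the submitters' processing notes name mm10. The deposited values are expected counts per gene, 1 table for each line, not normalized. Of the values, 7.77% were not whole, and all were rounded. Columns were assigned to groups by their names, and 0 columns belonged to no group. Total counts of 39293465 to 50095344 per library and 3 pools per group set the precision. The p-values set the difference between groups against the spread between pools, and the spread between single animals was not measured.

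Each line was fitted with edgeR 4.0.16 in R 4.3.3 and tested by quasi-likelihood (glmQLFit and glmQLFTest), on genes kept by filterByExpr (at least 10 counts, 15 in total) and scaled by TMM, with Benjamini-Hochberg adjustment over all genes tested and a threshold of FDR<0.01. The difference between the mutants was the interaction of line and genotype over 12 libraries. SE was the absolute log2 fold change divided by the square root of F. Correlations used log2(CPM + 0.5). Expected counts do not hold transcript length, which was taken from GENCODE M21. Proteins were translated from GENCODE coding sequences with Biopython 1.88 and aligned globally.

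The 9 genes and the lists of related and marker genes were chosen with earlier results of these data known. All 9 genes are reported in full, and of the related genes up to the 8 with the smallest p among those called in each comparison, with the targeted genes and the 5 genes most correlated with *Vsnl1*, except that some genes are not reported here. Alternatives were other filters, upper quartile normalization, DESeq2 1.42.0, the likelihood ratio test, FDR<0.05, male-specific or meningeal genes as a covariate, one fit over 12 libraries, the column number as a block and leaving out each library. Pallial and ventral LGN markers as covariates were added after seeing the data. Counts were simulated with 200 genes changed by 1 on the log2 scale. Of these, 81.5% were called in the *Sox2* line (15496 genes), 77% in the *Nr2f1* line (15480) and 61.5% for the difference (15819). Unchanged genes called numbered 5, 4 and 2. Smaller changes were not simulated, so these shares do not hold for them.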

Additional observations from a re-analysis of the deposited data

Results flagged for a closer look

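Among the 8 genes other than *Vsnl1* and the 63 related genes tested, the changes of 4 genes differed between the *Sox2* and *Nr2f1* mutants. This was the test of the difference itself, by edgeR over 12 libraries. Of all genes tested, 0.331% were called with the higher and 1.11% with the lower change in *Sox2* mutants. *Calb2* was higher by 0.93 on the log2 scale in *Sox2* mutants than in *Nr2f1* mutants (FDR = 0.00207), and was above the controls in 3 of 3 mutant libraries of both lines. *Camk4* had a difference of -0.79 (FDR = 0.00401) and was below the controls in 3 of 3 mutant libraries of both lines. *Pcp4* had a difference of 0.69 (FDR = 0.00791), also with 3 of 3 mutant libraries below the controls in both lines. *Necab1* had a difference of 1.07 (FDR = 0.00851), with 3 of 3 *Sox2* mutant libraries above and 3 of 3 *Nr2f1* mutant libraries below their controls. The differences of *Camk4*, *Pcp4* and *Necab1* passed in 3, 1 and 3 of 12 fits that left out a library. They were lost with male-specific, pallial or ventral LGN genes as a covariate, and that of *Calb2* was lost with ventral LGN genes. *Vsnl1* had a difference of 1.54, with every *Sox2* mutant library above and every *Nr2f1* mutant library below its controls, and this difference was not tested because it chose the gene.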

How the results depend on the processing

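Of the 7 tested genes other than *Vsnl1*, 4 were called in *Sox2* mutants, and this count was 7 at FDR<0.05, 6 with the likelihood ratio test and in one fit over 12 libraries, 5 with DESeq2, without a filter on low counts and with meningeal genes as a covariate, 3 with upper quartile normalization and with male-specific genes, and 3 to 4 without each library in turn. In *Nr2f1* mutants 1 was called, against 2 without a filter on low counts, 3 with DESeq2, 3 with the likelihood ratio test, 3 at FDR<0.05, 2 in one fit over 12 libraries, 0 with male-specific genes and 0 with meningeal genes as a covariate, and 0 to 2 without each library. For the difference 1 was called, against 2 with DESeq2, 2 with the likelihood ratio test, 2 at FDR<0.05, 0 with ventral LGN markers as a covariate, and 0 to 2 without each library. With the column numbers 1 and 3 of the *Sox2* line as a replicate block, on 4 libraries, 4 genes were called, and *Ncald* was lost (log2 fold change -0.33, edgeR, FDR = 0.0899) while *Calb1* was called (1.55, FDR = 2.17e-09). The deviations of same-numbered libraries correlated at 0.217 and 0.206, which with 2 pairs does not pair them, and the *Nr2f1* line shares 1 letter, so that no block was fitted there. Of 9 control levels per length, 5 kept their rank with the shortest transcript in place of the longest.

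Signs turned only for values that had not passed the threshold. *Hpcal1* in *Nr2f1* mutants was -0.28 with meningeal genes and -0.087 with ventral LGN markers as a covariate, and between -0.12 and 0.23 without each library. For the difference, *Hpca* was 0.0025 and *Ncald* 0.0019 with upper quartile normalization, *Hpca* was 0.013 and *Hpcal4* -0.15 with pallial markers, and *Hpca* was 0.048 and *Hpcal4* -0.076 with ventral LGN markers. Without each library the difference lay between -0.086 and 0.086 for *Hpca*, -0.086 and 0.055 for *Ncald*, and -0.28 and 1.39 for *Pvalb*. The change of *Vsnl1* in *Sox2* mutants was 1.13 with ventral LGN markers and otherwise 1.22 to 1.40. The cause of these shifts was not tested. With 3 pools a group, the median SE over all genes was 0.11 (log2) for the *Sox2* line, 0.095 for the *Nr2f1* line and 0.15 for the difference.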
